A study of Sus scrofa with 63 samples.

Results

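The complement genes C3, C4A and CFB were followed in pig skin from 1 h to 514 h after exposure to sulfur mustard, an alkylating agent that blisters skin. They are 3 of the 6765 genes that the array's annotation names from probe sets with 1 gene symbol. A probe set is the group of short DNA probes that reads one transcript, and every probe set whose symbol was one of the 3 genes was taken, which gave 4 of the 23999 probe sets tested. CFB had 2 probe sets, and for each gene the one with the highest mean over the 63 arrays was used.

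The study asked how skin transcripts change after a sulfur mustard injury. Exposed arrays came from 3 cm lesions made on the depilated ventral abdomen of female Yorkshire crossbred pigs with 400 µL of undiluted agent left for 8 min. Control arrays came from unexposed template sites on the abdomen of the exposed animals, and sham arrays came from other pigs that were prepared in the same way and given no agent. Skin was taken with an 8 mm punch at 1, 2, 4, 24, 48, 72, 168, 336 and 514 h, and RNA from 3 exposed sites, 3 control sites and 1 sham pig was hybridised at each time. By the design text 4 pigs were used at a time. Exposed and control sites came from the same 3 of them, so those arrays share animals, and the labels do not say whether a replicate number marks an animal. The last time is 514 h in the labels and is given in days, as a slightly shorter time, in the design text. Pig age is not given in the labels.

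Complement is a set of plasma and tissue proteins that mark microbes and damaged cells for removal. The classical and lectin pathways cleave C4 and C2, the alternative pathway uses factor B and factor D, and all of them meet at C3, whose fragments coat targets and draw in leukocytes. The liver makes most of the plasma pool, and macrophages, keratinocytes and fibroblasts also make these proteins locally in inflamed tissue. In the RefSeq annotation of Sscrofa11.1, CFB (chr7:24034077-24040523) and C4A (chr7:24068019-24083060) lie in the MHC class III region, where C4A starts 27496 bp after the end of CFB with 4 genes in between, and C3 lies at chr2:72431470-72471622. The build behind the array's probe design is not given in the sources used here. No sequence is shown because the array's probes and the pig genome were not used here.

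The arrays behaved as skin with a variable amount of muscle. The keratinocyte genes KRT1 and KRT10 averaged 13.5 and 13.6 on the log2 signal scale over all arrays, and the fibroblast gene DCN averaged 13.8. The mean of 11 skeletal muscle genes ranged from 6.77 to 12.9 in exposed arrays and from 10.2 to 13.5 in control arrays at 24 to 72 h. Of 7 hepatocyte and plasma genes ALB averaged 6.21, at the 21.2 percentile of all probe sets, and APOA1 was the brightest, with 11.1 at the 95.3 percentile. Array medians lay between 7.75 and 7.86. Precision is limited by how many arrays there are: 2 arrays of one group differed with an SD over probe sets whose median was 0.335.

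All 3 genes were higher in lesions when averaged over 24 to 72 h and over 168 to 514 h, and their courses differed. Over 24 to 72 h the exposed sites exceeded control sites 3.75-fold for CFB, 2.94-fold for C3 and 1.95-fold for C4A. Over 168 to 514 h the difference was 3.84-fold for C3, 2.04-fold for C4A and 1.79-fold for CFB. The CFB difference in that window did not pass the limma test without 168 h, or in its second probe set. At 514 h alone none of the 3 passed. None of the 3 passed the limma test at 1 to 4 h, and at an unadjusted p under 0.05 the count was also 0, where 2.07% of probe sets were called higher. Values are given below as log2 signal, so that a difference of 1 is a doubling, and a difference was called where the Benjamini-Hochberg adjusted p of limma over 23999 probe sets was under 0.05. The ± of a difference is its standard error, and p-values measure the spread between these biopsies.

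**Figure D1:**
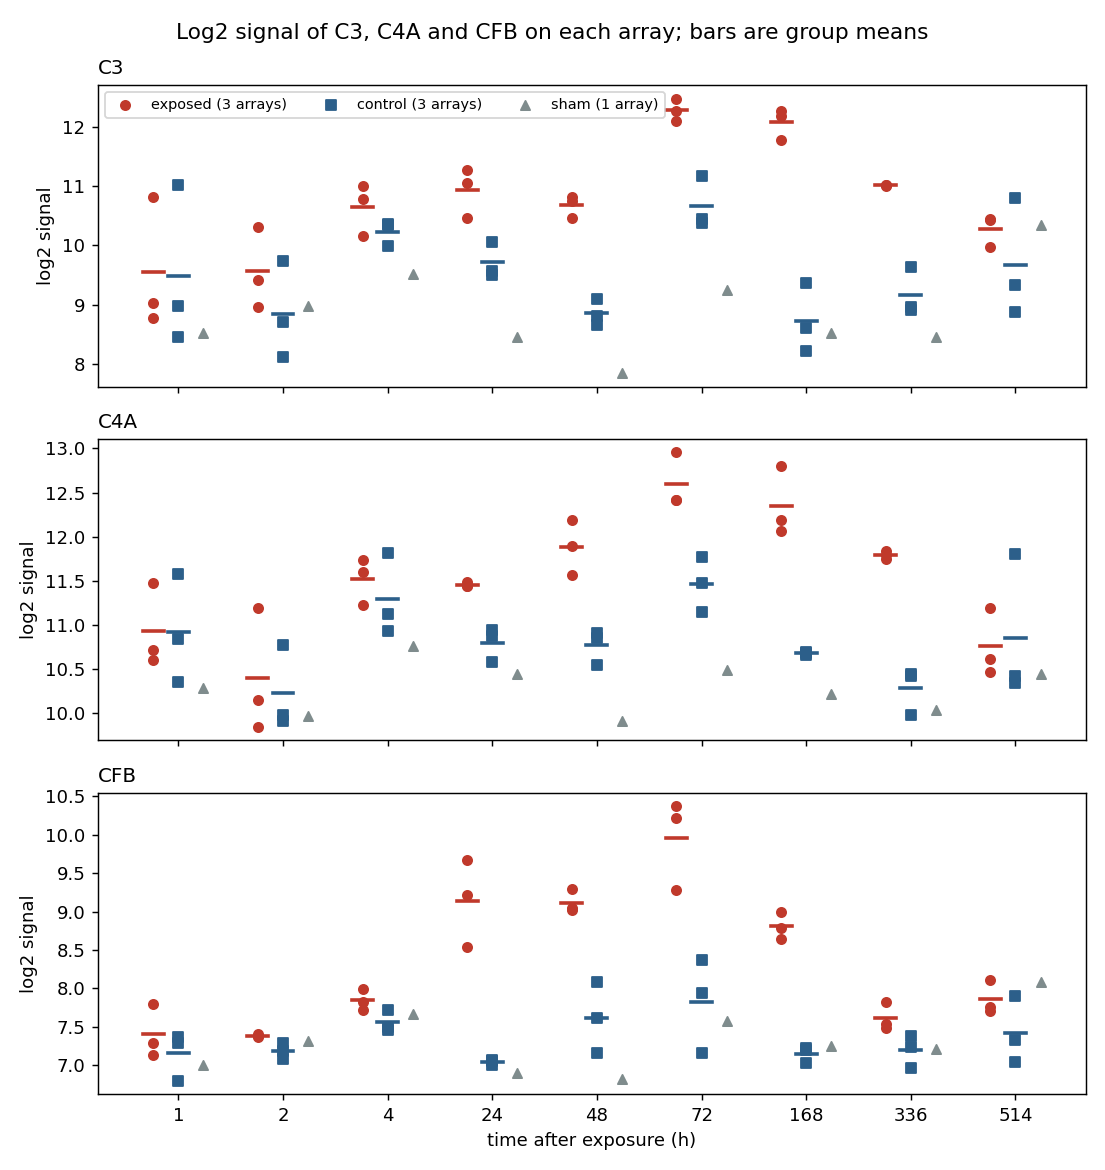
Log2 signal (vertical axis) of C3, C4A and CFB on each array against time after exposure in hours (horizontal axis, evenly spaced). Circles are exposed sites, squares control sites and triangles the sham array, and short bars are means of 3 arrays. At 24, 48, 72, 168 and 336 h the exposed arrays of all 3 genes lie above all control arrays of the same time. At these times 13.5% to 19.9% of all probe sets do so. At 336 h the exposed arrays of CFB fall to 7.49 to 7.83, near the 6.96 to 7.39 of control arrays.

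C4A encodes the C4 chain that is cleaved when antibody, or a lectin bound to sugars, starts the cascade. At 1 h the 3 exposed arrays read 10.60, 10.71 and 11.48, against 10.35, 10.84 and 11.58 in control arrays and 10.29 in the sham array. At 2 h C4A read 11.20, 9.85 and 10.15 in exposed arrays, 9.92, 10.77 and 9.98 in control arrays and 9.96 in the sham array. At 4 h the exposed arrays read 11.60, 11.23 and 11.74, with 11.13, 10.93 and 11.81 in control arrays and 10.76 in the sham array. Exposed and control arrays overlapped at these 3 times. The mean difference of exposed minus control over 1 to 4 h was 0.14 ± 0.19 (adjusted p = 0.834), and exposed was the higher in 5 of 9 same-numbered pairs.

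From 24 h the C4A groups separated. The exposed arrays at 24 h read 11.44, 11.48 and 11.44, against 10.95, 10.58 and 10.87 in control arrays and 10.44 in the sham array. At 48 h C4A was at 11.89, 11.57 and 12.19 in exposed arrays, 10.91, 10.54 and 10.85 in control arrays and 9.91 in the sham array. At 72 h it was at 12.95, 12.41 and 12.41 in exposed arrays, 11.47, 11.77 and 11.15 in control arrays and 10.49 in the sham array. Every exposed array lay above every control array of its time. The difference was 0.66 ± 0.32 at 24 h, which did not pass (adjusted p = 0.137), 1.11 ± 0.32 at 48 h (adjusted p = 0.0206) and 1.13 ± 0.32 at 72 h (adjusted p = 0.0182). The adjusted p reached 0.13 at 48 h and 0.117 at 72 h when single arrays were left out.

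The largest C4A difference came at 168 h, where exposed arrays read 12.07, 12.80 and 12.18 against 10.66, 10.69 and 10.68 in control arrays and 10.22 in the sham array. At 336 h the exposed arrays read 11.79, 11.84 and 11.74, the control arrays 10.42, 9.98 and 10.44 and the sham array 10.03. The groups did not overlap at either time, and the differences were 1.67 ± 0.32 (adjusted p = 0.000186) and 1.51 ± 0.32 (adjusted p = 0.00318). At 514 h C4A read 10.61, 11.20 and 10.46 in exposed arrays, 10.42, 11.80 and 10.34 in control arrays and 10.44 in the sham array. The groups overlapped again, 1 control array was the highest of the 7, and the difference was -0.10 ± 0.32 (adjusted p = 0.913).

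CFB encodes factor B, the serine protease precursor that joins C3b to form the alternative pathway's C3 convertase. It was dimmer than the other members, at the 49.2 percentile of mean signal over probe sets. At 1 h the exposed arrays read 7.14, 7.29 and 7.80, against 6.80, 7.29 and 7.37 in control arrays and 7.01 in the sham array. At 2 h CFB was at 7.37, 7.38 and 7.40 in exposed arrays, 7.29, 7.19 and 7.08 in control arrays and 7.32 in the sham array. At 4 h it was at 7.99, 7.83 and 7.72 in exposed arrays, 7.46, 7.73 and 7.49 in control arrays and 7.67 in the sham array. The exposed array was the higher of every same-numbered pair, 9 of 9, but by 0.25 ± 0.15 on average (adjusted p = 0.461), and the groups did not overlap at 2 h only, as for 4.57% of all probe sets.

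At 24 h CFB was far above control sites. The exposed arrays read 8.54, 9.21 and 9.67, against 7.07, 7.05 and 7.01 in control arrays and 6.90 in the sham array. At 48 h they read 9.02, 9.04 and 9.29, with 7.61, 7.16 and 8.09 in control arrays and 6.83 in the sham array. The 72 h values were 10.21, 9.28 and 10.37 in exposed arrays, 8.36, 7.17 and 7.94 in control arrays and 7.58 in the sham array. No exposed array reached down to a control array at these times. CFB rose by 2.10 ± 0.26 at 24 h (adjusted p = 4.43e-08), by 1.50 ± 0.26 at 48 h (adjusted p = 0.000115) and by 2.13 ± 0.26 at 72 h (adjusted p = 4.52e-07).

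By 168 h the CFB lesions read 8.64, 9.00 and 8.78, against 7.23, 7.03 and 7.20 in control arrays and 7.26 in the sham array. At 336 h the exposed arrays had come to 7.54, 7.83 and 7.49, with 7.39, 6.96 and 7.24 in control arrays and 7.21 in the sham array. At 514 h the exposed arrays read 7.71, 8.11 and 7.76, with 7.33, 7.90 and 7.05 in control arrays and 8.09 in the sham array. CFB was called at 168 h (1.65 ± 0.26, adjusted p = 7.0e-06) and at neither 336 h (0.42 ± 0.26, adjusted p = 0.495) nor 514 h (0.43 ± 0.26, adjusted p = 0.368). The call over 168 to 514 h rested on the first of these times: without 168 h the difference was 0.43 (adjusted p = 0.157).

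The second CFB probe set was dimmer, with a mean of 7.35 against 7.77, and moved less. Exposed arrays read 7.50, 7.33 and 8.06 at 24 h, against 7.21, 7.42 and 7.12 in control arrays, and these overlapped. At 72 h they read 8.22, 7.74 and 8.58, against 7.52, 7.04 and 7.17 in control arrays, without overlap. Its differences were 0.38 ± 0.16 at 24 h (adjusted p = 0.081), 0.93 ± 0.16 at 72 h (adjusted p = 0.000106) and 0.31 ± 0.16 at 168 h (adjusted p = 0.188). Over 24 to 72 h it rose by 0.72 ± 0.09 (adjusted p = 5.67e-08), and over 168 to 514 h its difference was 0.09 ± 0.09 (adjusted p = 0.569). The 2 probe sets thus had the same sign in both windows and differed in size and in the later call. Why they differ was not tested.

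C3 encodes the component on which the pathways converge. Its arrays of one group spread widely at 1 h, with an SD of 1.11 in exposed and 1.35 in control arrays, and at 2 h, with 0.69 and 0.82. At 1 h the exposed arrays read 8.78, 9.03 and 10.82, against 8.46, 8.98 and 11.01 in control arrays and 8.51 in the sham array. At 2 h C3 read 10.32, 8.95 and 9.42 in exposed arrays, 8.11, 9.74 and 8.70 in control arrays and 8.97 in the sham array. At 4 h it read 11.00, 10.17 and 10.79 in exposed arrays, 10.36, 9.98 and 10.35 in control arrays and 9.52 in the sham array. The groups overlapped at all 3 times. At 1 h replicate 3 stood more than 1 log2 unit above the other arrays of its group in both groups. The difference over 1 to 4 h was 0.40 ± 0.28 (adjusted p = 0.553), and exposed was the higher in 7 of 9 pairs.

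At 24 h C3 stood at 11.27, 11.06 and 10.47 in exposed arrays, 10.06, 9.50 and 9.57 in control arrays and 8.46 in the sham array. At 48 h the exposed arrays read 10.47, 10.75 and 10.81, the control arrays 8.65, 8.81 and 9.10 and the sham array 7.85. At 72 h they were 12.48, 12.10 and 12.28, against 11.17, 10.38 and 10.44 in control arrays and 9.26 in the sham array. All exposed arrays were above all control arrays, and the sham array was below every control array, at each of these times. The difference at 24 h was 1.22 ± 0.48 and missed the threshold (adjusted p = 0.053). C3 rose by 1.82 ± 0.48 at 48 h (adjusted p = 0.0101) and by 1.62 ± 0.48 at 72 h (adjusted p = 0.0222). The 72 h call was lost in 4 of 6 fits that left out 1 array, with a highest adjusted p of 0.0971.

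The 168 h lesions held the largest difference of the 3 genes at any time. C3 read 11.79, 12.19 and 12.27 in exposed arrays, 8.22, 8.61 and 9.37 in control arrays and 8.52 in the sham array. This was a difference of 3.35 ± 0.48, or 10.2-fold (adjusted p = 1.67e-06), and ranked 16 among 6765 genes in the upward direction. At 336 h the exposed arrays lay close together, at 11.01, 11.02 and 11.01, against 9.63, 8.91 and 8.96 in control arrays and 8.45 in the sham array. C3 rose there by 1.85 ± 0.48 (adjusted p = 0.0165), a call lost in 4 of 6 fits without 1 array, where the adjusted p went up to 0.091. At 514 h the exposed arrays read 10.45, 9.98 and 10.43, with 8.87, 10.81 and 9.33 in control arrays and 10.34 in the sham array. The groups overlapped, and the difference was 0.62 ± 0.48 (adjusted p = 0.526).

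Read against the whole array, these calls stand as follows. At 24 h 1 of the 3 genes, CFB, was called higher, where 14.4% of probe sets were, and all 3 had an unadjusted p under 0.05 in limma. At 48 h and at 72 h all 3 were called, against 5.84% and 5.4% of probe sets, and at 168 h all 3 again, against 9.87%. At 336 h C3 and C4A were called, against 2.38% of probe sets. At 1, 2, 4 and 514 h none was called by limma, and none had an unadjusted p under 0.05, where 0.413%, 0.338%, 1.11% and 3.7% of probe sets were called higher. The exposed arrays of a gene lay above all its control arrays at 5 of 9 times for C3, 5 for C4A and 6 for CFB, and the share of probe sets that did so was 19.9% (24 h), 13.5% (48 h), 13.8% (72 h), 17.1% (168 h) and 14.2% (336 h).

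**Figure D2:**
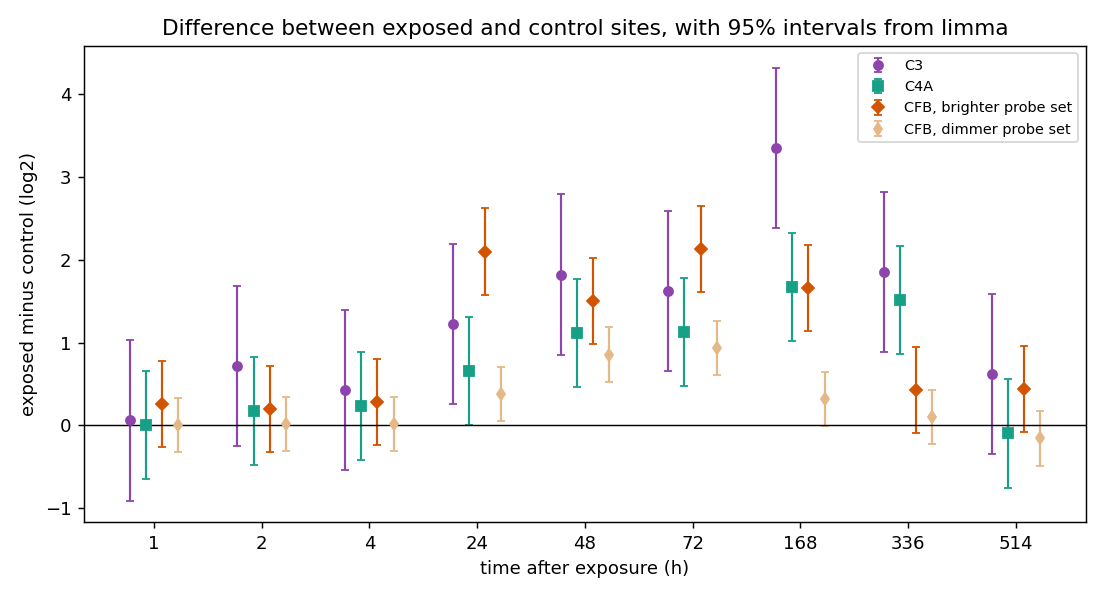
Difference in log2 signal between exposed and control sites (vertical axis) at each time in hours (horizontal axis, evenly spaced), with 95% intervals from the limma fit, for C3, C4A and both CFB probe sets. The C3 difference is highest at 168 h, at 3.35, while the brighter CFB probe set is highest at 24 and 72 h, at 2.10 and 2.13. The dimmer CFB probe set stays lower, with 0.93 at 72 h.

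Averaged over windows, the time courses of the genes parted. Over 24 to 72 h the difference was 1.91 ± 0.15 for CFB (adjusted p = 4.72e-13), 1.56 ± 0.28 for C3 (adjusted p = 1.73e-05) and 0.97 ± 0.19 for C4A (adjusted p = 6.08e-05), with exposed the higher in 9 of 9 pairs for each gene, and 18.2% of probe sets were called higher. Over 168 to 514 h it was 1.94 ± 0.28 for C3 (adjusted p = 1.08e-06), 1.03 ± 0.19 for C4A (adjusted p = 5.6e-05) and 0.84 ± 0.15 for CFB (adjusted p = 3.96e-05), with 12% of probe sets called higher. The difference grew between 1 to 4 h and 24 to 72 h by 1.66 ± 0.21 for CFB (adjusted p = 3.05e-07), 1.16 ± 0.39 for C3 (adjusted p = 0.0355) and 0.83 ± 0.26 for C4A (adjusted p = 0.0245), where 10.1% of probe sets grew. The C3 call here was lost in 13 of 36 fits without 1 array and with quantile normalization applied again (adjusted p = 0.0513), and the C4A call in 2 of 36 (adjusted p up to 0.0508). With the RNA extraction batch as a block neither passed, at 1.10 for C3 (adjusted p = 0.0723) and 0.79 for C4A (adjusted p = 0.0517). Between 24 to 72 h and 168 to 514 h the CFB difference shrank, by a change of -1.07 ± 0.21 (adjusted p = 0.000759), as 4% of probe sets did. The changes of C3, 0.38 ± 0.39 (adjusted p = 0.639), and of C4A, 0.06 ± 0.26 (adjusted p = 0.934), were not called. Tested jointly for a difference that depends on time, the moderated F was 10.4 for CFB (adjusted p = 1.05e-05), 4.37 for C3 (adjusted p = 0.00778) and 4.28 for C4A (adjusted p = 0.00881), and 18.7% of probe sets passed it.

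The responses of the genes were then compared with each other inside each array, by an exact two-sided permutation of exposed and control labels within times. It covered 9 comparisons with Benjamini-Hochberg adjustment over them, and the smallest p the 8000 permutations allow is 0.00025. C3 rose more than C4A by 0.59 over 24 to 72 h (permutation adjusted p = 0.00563, 8 of 9 pairs) and by 0.91 over 168 to 514 h (permutation adjusted p = 0.00563, 8 of 9 pairs). C3 rose more than CFB over 168 to 514 h, by 1.10 (permutation adjusted p = 0.00563, 8 of 9 pairs), while over 24 to 72 h the difference of -0.35 was not called (permutation adjusted p = 0.342). CFB rose more than C4A over 24 to 72 h, by 0.94 (permutation adjusted p = 0.00563, 8 of 9 pairs), and over 168 to 514 h the difference of -0.19 was not called (permutation adjusted p = 0.509). With the dimmer CFB probe set the 24 to 72 h values turned, to 0.83 for C3 over CFB (permutation adjusted p = 0.00525) and to -0.24 for CFB over C4A (permutation adjusted p = 0.212), so the order of CFB among the 3 genes in that window depended on the probe set. The mean of both CFB probe sets gave 0.35 for CFB over C4A there, not called (permutation adjusted p = 0.153). Over 168 to 514 h the call of CFB against C4A depended on the probe set too. With the dimmer one the difference was -0.94 and was called (permutation adjusted p = 0.00675). These p-values cover the spread between arrays and not that between probe sets. Over 24 to 72 h the brighter and the dimmer CFB probe set rose by 1.91 and 0.72, while C3 and C4A each had a single probe set. Whether the genes themselves differ in RNA change, C3 over C4A included, was therefore not tested.

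Within the exposed sites the levels ordered differently for each gene. C3 was highest at 72 h and 168 h, with means of 12.3 and 12.1, which overlapped each other and lay above the next time, 336 h, at 11.0. C4A was also highest at 72 h and 168 h, with overlapping values around means of 12.6 and 12.4, and its 168 h values overlapped those of 48 h. CFB was highest at 72 h with a mean of 9.95, which overlapped 24 h at 9.14, and its 48 h and 168 h values did not overlap the next lower time. Control sites also varied: the C3 mean was 10.7 at 72 h and 8.73 at 168 h, and the 72 h control arrays lay above all those of 4 h. RNA and arrays were handled in 3 periods with 1 time of every window in each, so processing period and single time cannot be told apart, while windows are balanced over periods. At 4 times the arrays of one time were split over 2 in vitro transcription batches. Within these the C3 difference was 0.97 and 1.35 at 24 h, 3.00 and 4.06 at 168 h and 1.39 and 2.08 at 336 h. C4A gave 0.86 and 0.55 at 24 h, 1.75 and 1.53 at 168 h and 1.39 and 1.53 at 336 h. For CFB the values were 2.62 and 1.84 at 24 h, 1.70 and 1.56 at 168 h and 0.30 and 0.39 at 336 h. At 1 h only 1 batch held both groups, where C3 read -0.45, C4A -0.28 and CFB 0.08, against 0.06, 0.01 and 0.25 over all arrays of that time.

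Sham pigs give a second baseline. Over the 9 times the sham minus control difference was -0.61 ± 0.23 for C3 (unadjusted p = 0.0103, adjusted p = 0.493) and -0.53 ± 0.15 for C4A (unadjusted p = 0.00132, adjusted p = 0.396), and for CFB it was -0.03 ± 0.12 (adjusted p = 0.969). None was called by limma, where 0.0208% of probe sets were, and 2 of the 3 had an unadjusted p under 0.05. The sham arrays of C3 and of C4A were below all 3 control arrays at 24, 48 and 72 h, a pattern that 2.32% of probe sets had, and the C3 difference over these times was -1.22 ± 0.39 (adjusted p = 0.971), a window looked at after the values were seen. Skeletal muscle markers were lower in the same sham arrays, with a median sham minus control difference of -1.92 over 9 times, where 10 of 11 had an unadjusted p under 0.05, and of -3.12 over 24 to 72 h. The median for 9 macrophage markers over 24 to 72 h was -0.34, and 4 of them had an unadjusted p under 0.05. None of either list was called by limma, and the part of these cells in the sham levels of C3 and C4A was not tested. With 1 sham pig a time, pig and treatment cannot be told apart.

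Exposed sites were above the sham arrays as well. Over 24 to 72 h the exposed minus sham difference was 2.78 ± 0.39 for C3 (adjusted p = 7.73e-07), 2.30 ± 0.21 for CFB (adjusted p = 9.45e-11) and 1.70 ± 0.26 for C4A (adjusted p = 4.32e-06), all called, with 13.7% of probe sets. Over 168 to 514 h it was 2.02 ± 0.39 for C3 (adjusted p = 0.000411) and 1.40 ± 0.26 for C4A (adjusted p = 0.000303), both called with 6.15% of probe sets, and 0.58 ± 0.21 for CFB (adjusted p = 0.0708). Both of these calls were lost when the sham array of 168 h was left out. That took the whole of 168 h, exposed arrays included, out of the difference. The remaining times gave 1.25 for C3 (adjusted p = 0.167) and 1.04 for C4A (adjusted p = 0.0652). Whether the calls rested on that sham array or on the exposed arrays of 168 h was not tested. Over 1 to 4 h none was called by limma, where 0.775% of probe sets were, and 2 of the 3 had an unadjusted p under 0.05, with 0.92 ± 0.39 for C3 (adjusted p = 0.332), 0.61 ± 0.26 for C4A (adjusted p = 0.341) and 0.21 ± 0.21 for CFB (adjusted p = 0.78). These comparisons share the exposed arrays with those above.

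The other complement genes were set beside the members in the same windows. Of 47 listed genes 30 were measured, and 10 rose and 1 fell at 24 to 72 h, with a median difference of 0.17 against -0.003 for all probe sets, of which 18.2% were called higher and 16.9% lower. Averaged over 168 to 514 h 8 rose and 1 fell, with a median of 0.16, where 12% of probe sets were called higher and 9.88% lower. The single times of that window differed: at 168 h 16 of the 30 rose, with a median of 0.43, against 9.87% of probe sets, at 336 h 2 rose, against 2.38%, and at 514 h 1 rose and 2 fell, against 3.7% called higher and 2.13% lower. In the first window, 1 to 4 h, 1 rose, FCN1, against 2.07% of probe sets.

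Upstream of C3, the classical and lectin list held 8 measured genes, of which 2 rose at 24 to 72 h, where 18.2% of probe sets did. FCN1, a ficolin that recognises microbial sugars and is made by myeloid cells, rose by 1.96 ± 0.12 (adjusted p = 1.38e-15), and C2, the protease partner of C4, rose by 0.89 ± 0.18 (adjusted p = 0.000107). In the later window 4 rose and 1 fell, where 12% of probe sets were called higher and 9.88% lower. At 168 h alone 6 of the 8 rose, where 9.87% of probe sets did. Averaged over the later window, the rises with the largest size were those of C1QC, a chain of the C1q recognition protein, by 0.69 ± 0.19 (adjusted p = 0.00544), and of C2, by 0.66 ± 0.18 (adjusted p = 0.00571). At 24 to 72 h C1QC had read 0.02 ± 0.19 (adjusted p = 0.959). C4B had no probe set with its symbol, so the C4A probe set was not compared with one for a near copy.

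Both other alternative pathway genes rose at 24 to 72 h, where 18.2% of probe sets did. CFP, which encodes properdin, the stabiliser of the C3 convertase, rose by 1.10 ± 0.14 (adjusted p = 6.95e-08), and CFD, the factor D protease that cleaves factor B, rose by 0.44 ± 0.10 (adjusted p = 0.000448). At 168 to 514 h neither was called, with 0.31 ± 0.14 for CFP (adjusted p = 0.117) and -0.26 ± 0.10 for CFD (adjusted p = 0.0571). None of the 6 measured terminal pathway genes, which build the membrane attack complex, was called in the 3 window averages by limma, while 0, 1 and 4 of them had an unadjusted p under 0.05 at 1 to 4, 24 to 72 and 168 to 514 h. The largest window difference among them was that of C7, at 0.59 ± 0.26 over 24 to 72 h (unadjusted p = 0.0298, adjusted p = 0.0773) and 0.60 ± 0.26 over 168 to 514 h (unadjusted p = 0.0259, adjusted p = 0.0953). At 168 h alone, where 9.87% of probe sets were called higher, 2 of the 6 rose, named here after their values were seen: C7 by 1.40 ± 0.45 (adjusted p = 0.0244) and C8A by 0.26 ± 0.09 (adjusted p = 0.0389).

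Regulators and receptors were mixed. Among 6 soluble regulators CLU, clusterin, rose by 0.89 ± 0.15 at 24 to 72 h (adjusted p = 5.15e-06) and by 1.72 ± 0.15 at 168 to 514 h (adjusted p = 2.68e-11), SERPING1, the C1 inhibitor, rose by 0.27 ± 0.08 at 24 to 72 h (adjusted p = 0.0072), and C4BPA, a chain of the C4b binding protein, fell by 0.51 ± 0.11 there (adjusted p = 0.000443). Of 3 membrane regulators that protect host cells, CD55 and CD46 rose at 24 to 72 h, by 0.99 ± 0.18 (adjusted p = 1.79e-05) and 0.61 ± 0.07 (adjusted p = 8.41e-09), and CD59 read -0.12 ± 0.08 (adjusted p = 0.263). At 168 to 514 h none of the 3 was called by limma, and 1 had an unadjusted p under 0.05. Among 5 measured receptors ITGB2, the beta chain of complement receptors on leukocytes, rose by 1.44 ± 0.16 (adjusted p = 4.53e-09) and VSIG4, a macrophage receptor for C3 fragments, by 0.47 ± 0.15 (adjusted p = 0.0103) at 24 to 72 h. At 168 to 514 h VSIG4 rose by 0.95 ± 0.15 (adjusted p = 4.86e-06), ITGB2 by 0.88 ± 0.16 (adjusted p = 9.54e-05) and CD93 by 0.61 ± 0.14 (adjusted p = 0.00147).

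**Figure D3:**
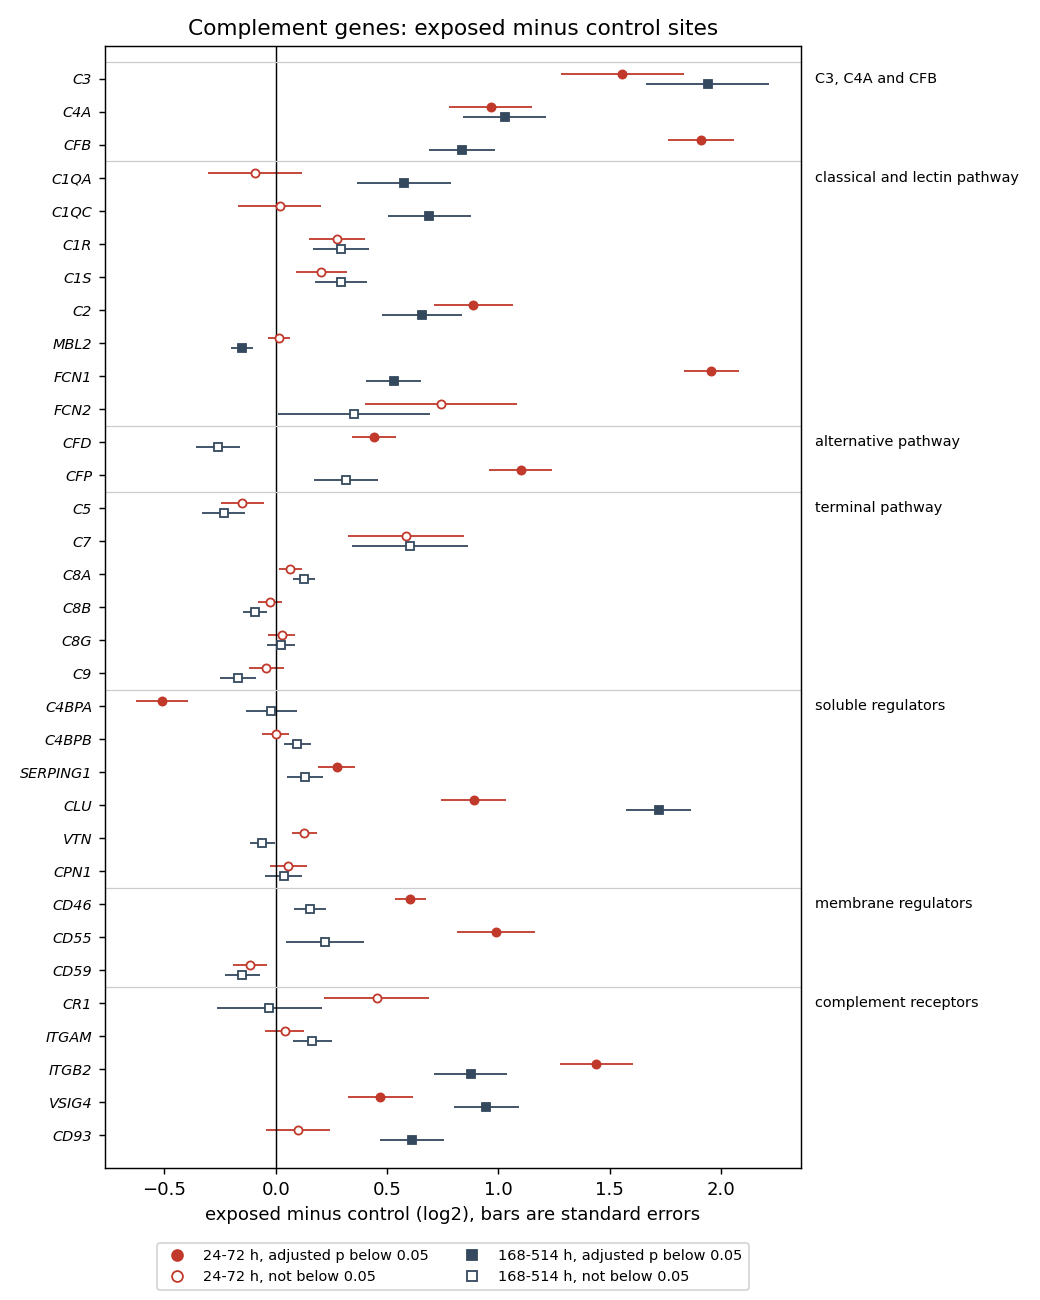
Differences in log2 signal between exposed and control sites (horizontal axis) with standard errors, for C3, C4A and CFB and the 30 other measured complement genes (vertical axis) by role. Circles are 24 to 72 h, squares 168 to 514 h, and filled symbols have an adjusted p under 0.05. C3, C4A and CFB are filled in both windows, FCN1 and CLU reach 1.96 and 1.72, and no terminal pathway gene is filled in these windows.

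Acute phase genes, whose products rise in plasma during inflammation, were split. Of 13 measured, 5 rose and 1 fell at 24 to 72 h, with a median of 0.04, beside 18.2% of probe sets called higher and 16.9% lower. PTX3, a pentraxin that binds C1q, rose by 3.11 ± 0.20 (adjusted p = 3.96e-15), CD14, a lipopolysaccharide receptor, by 1.51 ± 0.15 (adjusted p = 1.19e-10) and ITIH4 by 0.99 ± 0.13 (adjusted p = 1.52e-07). In the last window 4 rose, where 12% of probe sets did, with PTX3 at 0.95 ± 0.20 (adjusted p = 0.000504) and ITIH4 at 0.87 ± 0.13 (adjusted p = 4.93e-06) the largest. The 7 measured hepatocyte and plasma genes gave a mean level of 6.98 in exposed arrays and 7.00 in control arrays at 24 to 72 h, where none rose and 1 fell.

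A further list held cytokine, receptor and transcription factor genes that act upstream of acute phase and complement genes in inflammation. Of its 19 measured genes 4 rose at 1 to 4 h, 10 rose and 1 fell at 24 to 72 h, and 9 rose at 168 to 514 h, while 2.07%, 18.2% and 12% of probe sets were called higher in these windows. IL6, the main inducer of acute phase genes, rose by 1.71 ± 0.21 already at 1 to 4 h (adjusted p = 3.16e-07), by 1.99 ± 0.21 at 24 to 72 h (adjusted p = 9.38e-10) and by 1.03 ± 0.21 at 168 to 514 h (adjusted p = 0.000336). The largest others at 24 to 72 h were TLR2 at 1.96 ± 0.21 (adjusted p = 6.24e-10) and TLR4 at 1.47 ± 0.14 (adjusted p = 3.72e-11), receptors for microbial products, and at 168 to 514 h TLR2 at 1.59 ± 0.21 (adjusted p = 1.88e-07) and IL1B at 1.10 ± 0.29 (adjusted p = 0.00459).

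The chromosomal neighbours of CFB and C4A were measured for 17 of 29 listed genes of the MHC class III region. At 24 to 72 h 5 rose and 3 fell, with a median of 0.07, and at 168 to 514 h 3 rose and 2 fell. Over the array 18.2% were called higher and 16.9% lower in the earlier of these windows, and 12% and 9.88% in the later one, and nothing is read from these counts about the locus. C2 had the largest rise (above). NEU1, a lysosomal sialidase, rose by 0.52 ± 0.06 (adjusted p = 8.05e-10) and TNXB, an extracellular matrix protein, fell by 0.62 ± 0.15 at 24 to 72 h (adjusted p = 0.00094) and by 1.36 ± 0.15 at 168 to 514 h (adjusted p = 6.56e-09). Of the genes between CFB and C4A, NELFE and SKIV2L rose at 24 to 72 h by 0.34 ± 0.08 (adjusted p = 0.000738) and 0.20 ± 0.06 (adjusted p = 0.00734), and STK19 read 0.09 ± 0.06 (adjusted p = 0.258).

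Leukocyte markers moved in the same samples. At 24 to 72 h 8 of 9 measured macrophage markers rose, and their mean level was 10.5 in exposed arrays (10.2 to 11.1) and 9.05 in control arrays (8.51 to 9.80), without overlap. At 168 to 514 h 8 of 9 rose, with means of 9.68 and 8.92 in exposed and control arrays, beside 18.2% and 12% of probe sets called higher in the 2 windows. By single time 8 of 9 rose at 168 h and 4 at 336 h, against 9.87% and 2.38% of probe sets. Their median difference at 514 h was -0.04, with means of 9.22 in exposed and 9.21 in control arrays. Of 5 measured neutrophil markers 4 rose in each of these windows, with mean levels of 8.81 in exposed and 7.43 in control arrays at 24 to 72 h and 9.63 in exposed and 7.70 in control arrays at 168 to 514 h. The 5 were S100A8, S100A9, S100A12, ELANE and LTF, and which cells held these transcripts was not tested. Unlike the macrophage mean, theirs still stood apart at 514 h, at 9.99, 9.89 and 9.30 in exposed and 7.86, 8.39 and 7.64 in control arrays. At 1 to 4 h none of either list was called by limma, and 1 macrophage marker and 0 neutrophil markers had an unadjusted p under 0.05. Keratinocyte markers fell in 5 of 6 genes at 24 to 72 h, where 16.9% of probe sets were called lower, with mean levels of 11.2 in exposed and 12.6 in control arrays. Their part in the rise of C3, C4A and CFB was not tested, and in whole biopsies more cells of a type and more RNA per cell cannot be told apart.

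**Figure D4:**
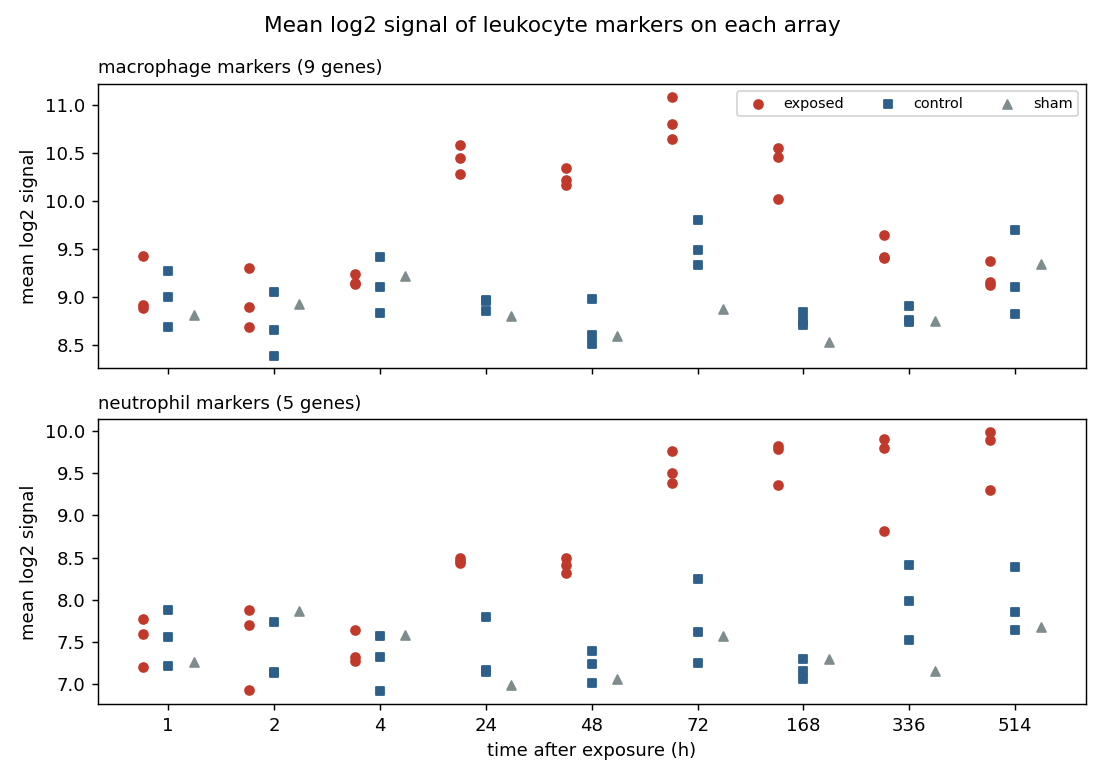
Mean log2 signal (vertical axis) of 9 macrophage and 5 neutrophil marker genes on each array against time after exposure in hours (horizontal axis, evenly spaced), for exposed, control and sham arrays. The macrophage mean of exposed arrays is highest at 72 h, up to 11.1, and the neutrophil mean of exposed arrays is 8.81 to 9.99 at 168 to 514 h.

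The genes whose signal ran most like the members over all 63 arrays are given here as a description, in which the arrays share groups and times. For C3 they were LCP1, an actin-bundling protein of leukocytes (Pearson r = 0.907), GMFG (r = 0.903), the Fc receptor FCGR3A (r = 0.899), the cytokine receptor chain IL2RG (r = 0.896) and GP91-PHOX, the phagocyte oxidase subunit (r = 0.895). For C4A they were C2 (r = 0.907), LCP1 (r = 0.903), ITGB2 (r = 0.890), the protease CTSZ (r = 0.886) and the chemokine CCL5 (r = 0.884). For CFB they were SLC11A1, a phagosome metal transporter of macrophages (r = 0.937), FCN1 (r = 0.921), NCF4, a phagocyte oxidase subunit (r = 0.909), the chemokine receptor CCR1 (r = 0.906) and the protease inhibitor TIMP1 (r = 0.905). Among the members r was 0.893 between C3 and C4A, 0.767 between C3 and CFB and 0.752 between C4A and CFB.

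At unexposed sites C3 and C4A varied together with macrophage and with lymphocyte markers. Over the 27 control arrays, in 12 relations adjusted together, C3 and the macrophage mean gave a Pearson r of 0.862 and a Spearman rho of 0.843 (permutation p = 1e-05 for each, the smallest that 100000 permutations can give, adjusted to 2.4e-05 and 0.00012). Without the 2 arrays farthest from the median r was 0.813, and within the 3 processing periods it was 0.842, 0.784 and 0.834. For C4A r was 0.825 and rho 0.727 (permutation p = 1e-05 and 3e-05, adjusted to 2.4e-05 and 0.00012), r was 0.796 without the 2 farthest arrays, and within periods it was 0.864, 0.498 and 0.780. For CFB r was 0.553 and rho 0.386 (permutation p = 0.00292 and 0.0476, adjusted to 0.00584 and 0.0635), and r was 0.263 without the 2 farthest arrays and 0.588, 0.280 and 0.530 within periods, so that relation rests on those arrays.

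The mean of 7 lymphocyte markers gave values of similar size. For C3 r was 0.815 and rho 0.723 (permutation p = 1e-05 and 6e-05, adjusted to 2.4e-05 and 0.00018), r was 0.790 without the 2 farthest arrays, and within periods it was 0.582, 0.835 and 0.863. For C4A r was 0.814 and rho 0.632 (permutation p = 1e-05 and 0.00046, adjusted to 2.4e-05 and 0.0011), with 0.740 without the 2 farthest arrays and 0.778, 0.397 and 0.908 within periods. For CFB r was 0.540 and rho 0.496 (permutation p = 0.0039 and 0.00956, adjusted to 0.00669 and 0.0164), with 0.494 without the 2 farthest arrays and 0.716, 0.209 and 0.373 within periods. No test compared the macrophage with the lymphocyte relations.

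C3 and C4A also varied together in control arrays, with r = 0.811 and rho = 0.777 (permutation p = 1e-05 and 3e-05, adjusted to 2.4e-05 and 0.00012), r = 0.785 without the 2 farthest arrays, and 0.843, 0.470 and 0.823 within periods. C3 and CFB gave r = 0.521 and rho = 0.457 (permutation p = 0.0049 and 0.0166, adjusted to 0.00723 and 0.0249). Within periods their r was 0.426, 0.071 and 0.719. C4A and CFB gave r = 0.522 and rho = 0.550 (permutation p = 0.00542 and 0.00345, adjusted to 0.00723 and 0.0069). Within periods their r was 0.700, 0.654 and 0.382. With skeletal muscle markers C3 had r = 0.282 and rho = 0.110 (permutation p = 0.154 and 0.585, adjusted to 0.185 and 0.638), r = 0.126 without the 2 farthest arrays, and 0.787, -0.451 and 0.310 within periods, so no relation held across periods. Control arrays of one time can share a pig with exposed arrays and were processed together, and control levels varied between times. The permutations moved values freely over all 27 control arrays. These p-values therefore take the arrays as independent, which the labels do not state, and the values within periods carry no p-value.

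**Figure D5:**
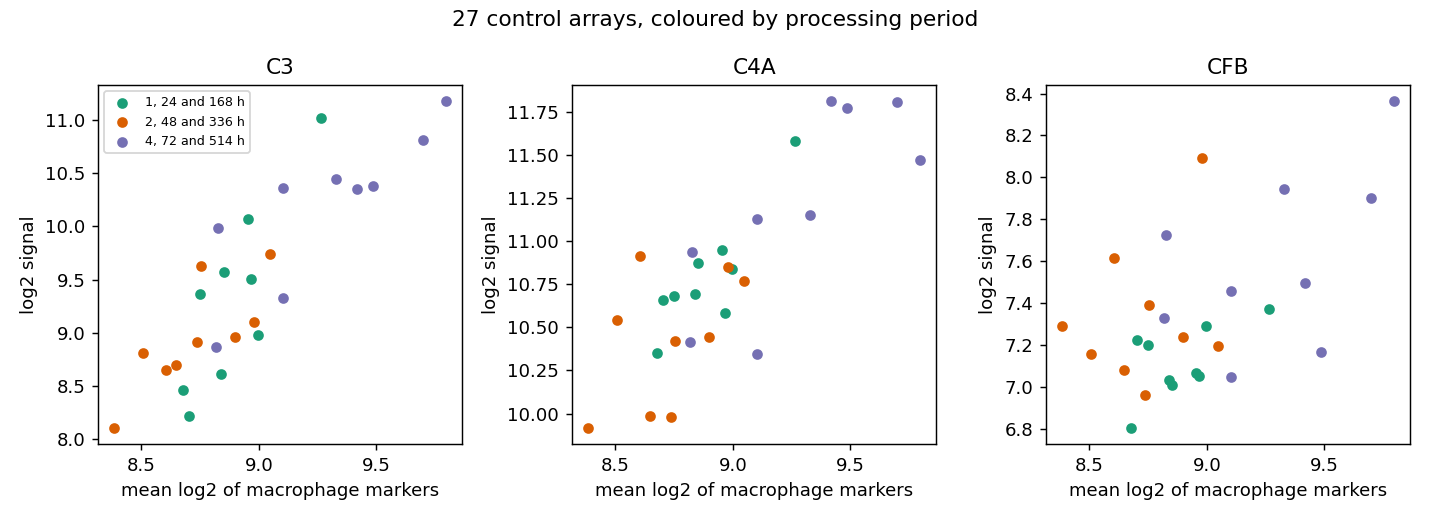
Log2 signal of C3, C4A and CFB (vertical axes) against the mean log2 signal of 9 macrophage markers (horizontal axes) in the 27 control arrays, 1 point an array, coloured by the 3 processing periods named by their times. Pearson r is 0.862 for C3, 0.825 for C4A and 0.553 for CFB, and the CFB points scatter most.

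The labels score lesions for pustular epidermitis, pustules in the epidermis. Among the 9 exposed arrays of 24 to 72 h, 6 had a score above 0 and 3 a score of 0. CFB ranged from 9.02 to 10.4, with a median of 9.48, in the scored lesions and from 8.54 to 9.28, with a median of 9.21, in those at 0. C3 ranged from 10.5 to 12.5 (median 10.8) in the scored lesions and from 11.1 to 12.1 (median 11.3) in those at 0. C4A ranged from 11.4 to 13.0 (median 12.0) in the scored lesions and from 11.4 to 12.4 (median 11.5) in those at 0. The ranges overlapped for each gene, the scores were spread unequally over the 3 times, and no test was made.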

How the data were processed

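Skin RNA from 63 biopsies was hybridised to Affymetrix GeneChip Porcine Genome arrays, from 10 µg of total RNA each per the labels' protocols. Each deposited value is the log2 signal of a probe set on an array. Per the submitters' processing notes RMA and Partek were used by the authors, and their versions and settings are not given in the sources used here. RMA works across arrays and compresses differences of dim probe sets, so changes of CFB may read low. No further scaling was applied. Of 24123 probe sets 124 control probe sets were left out. Symbols came from the supplied array annotation, in which 10069 of the tested probe sets have 1 symbol, 198 several and 13732 none. Positions came from RefSeq (Sscrofa11.1).

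All arrays were fitted in limma 3.58.1 (R 4.3.3) with 1 mean for each of 27 groups, which left 36 residual degrees of freedom beside 3.24 of the prior. The contrasts took exposed minus control at 9 times and in 3 windows (1 to 4, 24 to 72 and 168 to 514 h), changes between windows, sham minus control and exposed minus sham. Two-sided p-values were adjusted over all 23999 probe sets by the Benjamini-Hochberg method, and 0.05 was the threshold. The single sham array of a time adds no residual degrees of freedom and is taken to vary like the other groups. Permutation tests used scipy 1.17.1. The procedure was tested on simulated data.

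The members and the gene lists were chosen with earlier results of these data known. Named genes were the members, the 5 genes most like each over the 63 arrays, and of each list up to 3 with the largest change past the threshold at 24 to 72 h and up to 2 at 168 to 514 h (the largest where none passed). Of the CFB to C4A interval the measured genes were added after their values were seen, as were NEU1 and C1QC at 24 to 72 h, CD59, and C7 and C8A at 168 h. Alternatives were a replicate block, 2 processing batches as blocks, muscle score as a covariate, arrays of a window alone, quantile normalization, sham as control, other probe set choices, a filter on dim probe sets, another prior, and each array or time left out.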

Additional observations from a re-analysis of the deposited data

Results flagged for a closer look

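In the main fit the difference between exposed and control sites changed with time for each gene, by a test of the change itself. It was larger at 24 to 72 h than at 1 to 4 h by 1.66 for CFB, 1.16 for C3 and 0.83 for C4A on the log2 scale. For CFB it was smaller again at 168 to 514 h, with a change of -1.07. Over all 9 times the moderated F was 10.4 for CFB, 4.37 for C3 and 4.28 for C4A. With the RNA extraction batch as a block the growth of C3 (1.10) and of C4A (0.79) missed the threshold. With sham arrays as control the F of C4A (3.36) missed it. Processing period and single time cannot be told apart, and the windows are balanced over periods.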

How the results depend on the processing

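Of 669 values from alternatives other than leaving out an array, 628 kept their sign and their side of the threshold, and of 1026 with 1 array left out 975 did. A replicate block, another prior, the filter on dim probe sets and arrays of a window alone leave a difference unchanged by construction. In these only the call could change. Alternatives were planned except the second CFB probe set and the windows without a time, which were chosen after seeing the data. With the RNA extraction batch as a block C3 missed the threshold at 72 h (1.51) and 336 h (1.73), C4A at 72 h (0.97), and the growth from 1 to 4 h to 24 to 72 h for C3 (1.10) and C4A (0.79). With the in vitro transcription batch as a block C3 missed it at 336 h (1.73), the 1 h differences turned to -0.079 for C3 and -0.056 for C4A, and sham minus control at 168 to 514 h to 0.0019 for C3. Quantile normalization gave 1.08 for the growth of C3, short of the threshold, and -0.023 for C4A at 1 h. The muscle covariate gave 1.39 for C3 at 24 h, now called, and 0.069 for sham minus control of C3 at 168 to 514 h. C3 at 24 h was also called with arrays of that time alone (1.22) and with bright probe sets only (1.22), and so were C4A at 24 h (0.66) and CFB exposed minus sham at 168 to 514 h (0.58) with arrays of the time or window alone. Sham arrays as control gave 2.47 for C3 at 24 h, now called, 0.58 for CFB at 168 to 514 h and F = 3.36 for C4A, no longer called, and opposite signs, none called, at 514 h (-0.055 for C3, 0.32 for C4A, -0.23 for CFB) and for the later change between windows (-0.76 for C3, -0.29 for C4A). The second CFB probe set gave 0.38 at 24 h, 0.31 at 168 h and 0.087 at 168 to 514 h, no longer called, -0.16 at 514 h, -0.065 and -0.10 for sham minus control at 1 to 4 and 168 to 514 h, 0.83 for C3 minus CFB at 24 to 72 h, and -0.13, -0.24 and -0.94 for CFB minus C4A in the 3 windows, the last now called. The mean of both CFB probe sets gave 0.24 for C3 minus CFB at 24 to 72 h, -0.00901 and 0.35 for CFB minus C4A at 1 to 4 and 24 to 72 h, the second no longer called, and -0.016 for sham minus control of CFB at 1 to 4 h. CFB over 168 to 514 h without 168 h was 0.43, no longer called. Why values moved was not tested. With single arrays left out, differences that changed a call or sign ranged as follows: for C3 -0.58 to 0.82 at 1 h, 1.05 to 1.46 at 24 h, 1.48 to 1.88 at 72 h, 1.72 to 2.08 at 336 h, 0.90 to 1.37 for the growth to 24 to 72 h, 1.25 to 3.06 for exposed minus sham and -0.46 to 0.23 for sham minus control at 168 to 514 h; for C4A -0.28 to 0.33 at 1 h, -0.22 to 0.45 at 2 h, 0.96 to 1.27 at 48 h, 0.95 to 1.28 at 72 h, -0.35 to 0.38 at 514 h, 0.72 to 0.96 for the growth to 24 to 72 h, -0.023 to 0.22 for the later change and 1.04 to 1.95 for exposed minus sham at 168 to 514 h; for CFB 0.089 to 0.98 for exposed minus sham at 168 to 514 h, and for sham minus control -0.025 to 0.12 at 1 to 4 h and -0.12 to 0.062 over 9 times. A left-out sham array took its whole time out of the exposed minus sham and sham minus control differences. Those ranges therefore also cover a change of the times averaged. The filter on dim probe sets left out CFB, so it gave no CFB value.

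With the replicate number as a block C3 at 24 h kept its value of 1.22 and was called (adjusted p = 0.0149), and the block changed no other call. Same-numbered arrays deviated together, with r over 0.1, in 21 of 27 pairs and in all 3 pairs at 5 of 9 times (mean r 0.27), and 20 of 27 exposed arrays correlated best with their own number, a hint from the data, not the design. Signal over background was not given for single probe sets, so a lower limit of detection for CFB was not set.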
